A study of Mus musculus with 12 samples.

Results

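The spliceosome and its helpers were followed here through 68 genes for small nuclear ribonucleoprotein (snRNP), SR and hnRNP proteins in mouse acute myeloid leukaemia cells. Members were the rows whose symbol begins with Snrp, Snrnp, Srsf, Sfrs, Hnrnp, Hnrp, Lsm, Sf3a or Sf3b in the pattern used, provided that they averaged at least 1 FPKM (fragment counts scaled to transcript length and to the number of mapped fragments) over the 12 libraries. The pattern found 71 symbols among the 23234 genes of the table, and 68 of the 10305 genes tested were members. By symbol the members fell into 6 classes, namely 7 Sm core, 11 snRNP-specific, 11 LSm, 8 SF3, 11 SR and 20 hnRNP genes. The 3 symbols left outside were Lsm11 at a mean of 0.952 FPKM, Srsf12 at 0.00194 FPKM and Snrpn, which was listed at 0 in every library. The lowest members, Lsm1 at 5.89 FPKM and Hnrnph3 at 5.91 FPKM, lay well above the limit.

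The cells were primary leukaemia cells of genotype NRASG12V/Mll-AF9, a mutant NRAS allele together with the Mll-AF9 fusion, on an F1 background written as (FVB/n X C57/BL/6J). All groups, the vehicle included, were kept for 24 h in RPMI with fetal bovine serum and the cytokine GM-CSF, with 20 µM PD325901 (a MEK inhibitor), 26 µM RAD001 (everolimus, an mTOR inhibitor), 20 µM GDC0941 (a PI3 kinase inhibitor) or DMSO. Each group held 3 libraries of total RNA. The labels name neither the promoter behind the NRAS allele nor the number of mice, and they do not say whether replicates were separate cultures, so p-values measure only the spread between these samples, which may be technical. The compounds are unrelated in structure, and each was used at 1 dose.

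Introns are removed by the spliceosome, which assembles anew on each intron from snRNPs, each made of a small RNA and its proteins. A ring of 7 Sm proteins forms the shared core of most snRNPs, a related LSm ring holds U6 RNA, and further proteins belong to a single snRNP. The SF3a and SF3b complexes let the U2 snRNP grip the branch point. SR proteins mostly bind exons and favour their inclusion, whereas many hnRNP proteins coat nascent RNA and can oppose inclusion. In human myeloid neoplasms SF3B1 and SRSF2 are recurrently mutated, and leukaemia cells are often sensitive to drugs that act on SF3B1.

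Deposited FPKM summed to between 462335 and 587581 per library. Read counts were not used here, so depth was estimated only relative to DMSO replicate 1, as 0.845 to 1.21, from the ratios of very low values between libraries. Over the genes tested, pairs of libraries of one group had a Spearman rho of 0.966 to 0.996, and pairs from different groups one of 0.875 to 0.965. Of 12 myeloid markers 11 were in the table, and their summed level ran from 1134 to 1229 FPKM with PD325901, 2624 to 2822 with RAD001, 2311 to 2390 with GDC0941 and 1212 to 1305 with DMSO. Of the 10 myeloid markers tested, 3 fell and 5 rose with PD325901 against DMSO (30% and 50%, against 28.2% and 18.4% of all genes tested). With RAD001 2 fell and 6 rose (20% and 60%, against 15.9% and 15.4%). With GDC0941 2 fell and 5 rose (20% and 50%, against 12.7% and 11.6%). Cebpa, for a myeloid transcription factor, averaged 131 ± 18.6 FPKM with PD325901 and 40.95 ± 8.70 with DMSO (SD, n = 3 each), and Csf3r, a cytokine receptor gene, 105 ± 6.47 with PD325901 and 32.3 ± 2.52 with DMSO. Cd14 averaged 33.9 ± 4.54 with PD325901 and 170.3 ± 72.8 with DMSO, and Itgam 228 ± 1.98 with PD325901 and 336 ± 6.02 with DMSO. Itgam, Fcgr3 and Cd14 averaged 811, 714 and 698 FPKM with RAD001, 537, 778 and 622 with GDC0941, and 336, 381 and 170 with DMSO. Elane and Mpo went the other way, at 1.16 and 2.25 FPKM with RAD001, 2.66 and 3.94 with GDC0941, and 34.6 and 23.1 with DMSO. Lyz2 was listed at 0 in every library, although Ptprc, the gene of the leukocyte antigen CD45, stood at 91.3 to 136 FPKM. Markers of other lineages were low. T cell genes summed to 5.02 to 9.76 FPKM with PD325901, 0.260 to 3.47 with RAD001, 0.0605 to 1.66 with GDC0941 and 0.442 to 5.44 with DMSO. Their highest sums in a library were 9.76 FPKM over 6 T cell genes, 8.13 over 5 B cell genes, nearly all from Cd79b, 3.32 over 5 erythroid genes and 17.5 over 5 stromal and endothelial genes, with Pax5 listed at 0 in every library.

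Splicing factor genes were lower with PD325901 as a broad group. Of the 68 members 50 fell (73.5%) and 2 rose (2.94%) against DMSO, and the remaining 16 did not pass (limma, Benjamini-Hochberg adjusted p under 0.05 over all genes tested). Among all 10305 genes tested, 28.2% fell and 18.4% rose. The median log2 change was -0.41 over the members and -0.06 over all genes tested. All 3 PD325901 libraries lay below all 3 DMSO libraries for 54 members (79.4%, against 36.9% of all genes) and above them for 5 (7.35%, against 25.8%). The shift was mostly moderate, since 23 members fell by at least 0.5 on the log2 scale and 4 by at least 1. Because the log2 values were taken after adding 1 FPKM, they slightly understate the change of the lowest members. When each of the 6 libraries was left out in turn, 35 of the 50 kept their call in every fit, the number that fell ran from 38 (without PD325901 replicate 2) to 45, and all 50 kept their sign.

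Summed over the 68 members, the level was 3229, 3121 and 3100 FPKM with PD325901, 4391, 4185 and 4086 with RAD001, 4366, 4194 and 4757 with GDC0941, and 3915, 4449 and 4312 with DMSO. Every PD325901 library was below every other library, while the other groups overlapped. As a share of all deposited FPKM the members took 0.607% to 0.675% with PD325901, 0.739% to 0.758% with RAD001, 0.760% to 0.822% with GDC0941 and 0.775% to 0.913% with DMSO. In these bulk samples fewer cells of a type and less RNA per cell cannot be told apart. FPKM are relative values, so they do not show whether a cell held less of these transcripts in all.

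**Figure D1:**
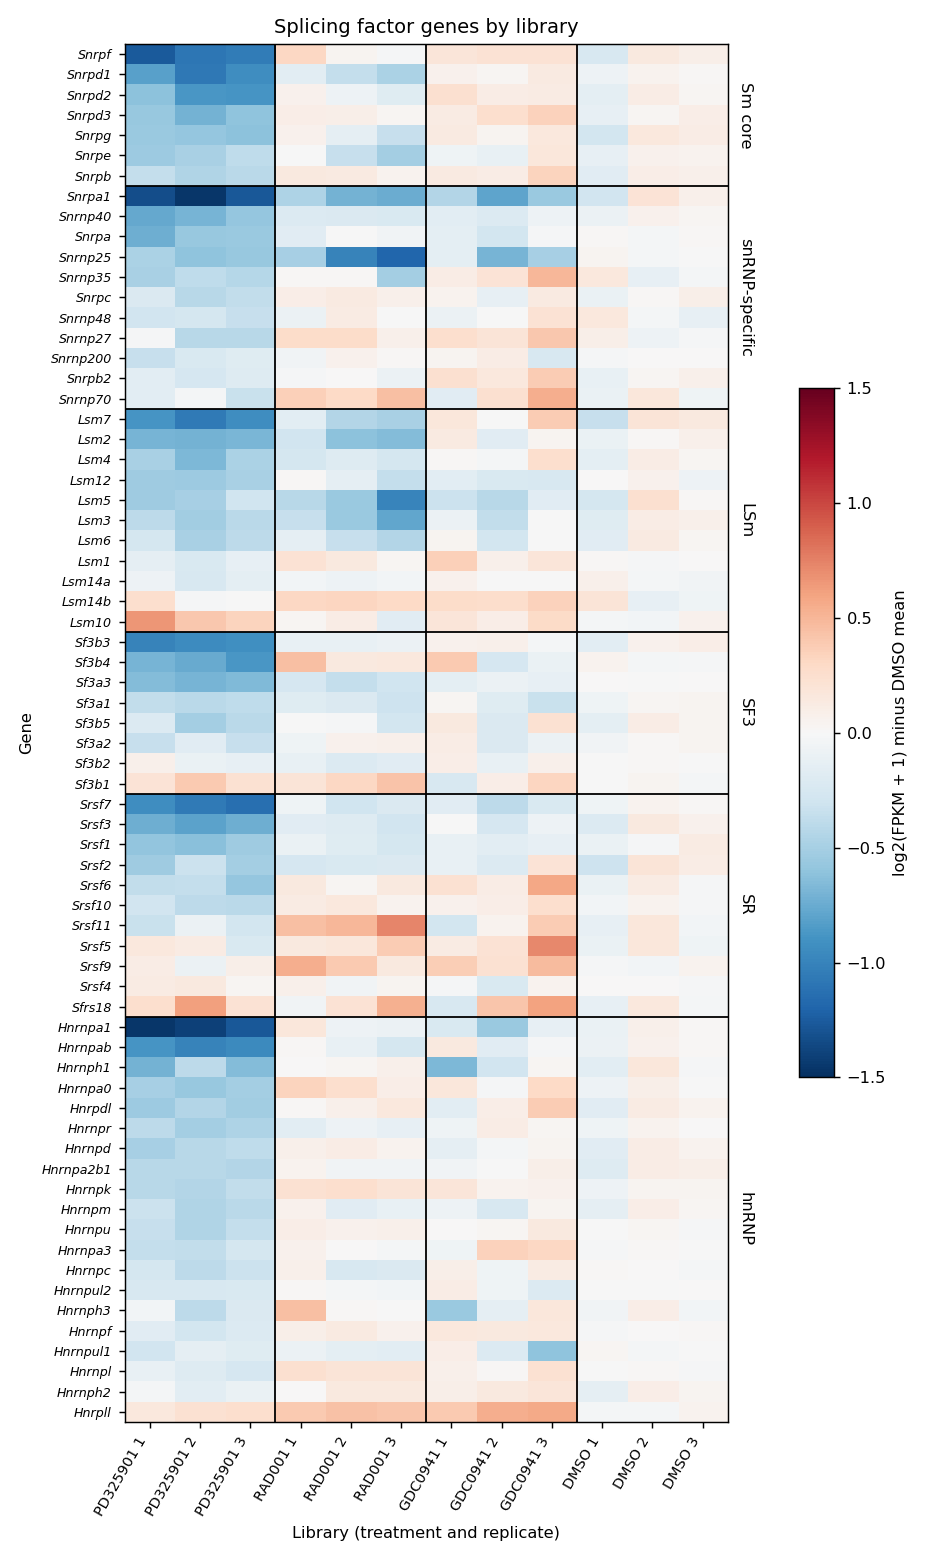
Each row is 1 of the 68 genes, grouped by class, and each column 1 library; colour gives log2(FPKM + 1) minus the mean of the 3 DMSO libraries, blue for lower and red for higher. The PD325901 columns are blue in most rows of every class, whereas a few rows, such as Lsm10, Sf3b1, Sfrs18 and Hnrpll, are red.

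The 4 members that fell by at least 1 came from 4 classes. Hnrnpa1 encodes an abundant hnRNP that silences exons, and it had 21.6, 22.4 and 24.8 FPKM with PD325901, against 57.1, 64.5 and 62.0 FPKM with DMSO. The groups were far apart, and the log2 change was -1.38 ± 0.12 (SE, adjusted p = 8.01e-06). Snrpa1, for a protein of the U2 snRNP, had 10.3, 9.32 and 10.7 FPKM with PD325901, against 22.2, 31.6 and 28.9 FPKM with DMSO. Its change was -1.35 ± 0.14 (adjusted p = 2.49e-05), with DMSO replicate 1 the lowest of the vehicle libraries. Snrpf, a subunit of the Sm ring, had 15.3, 17.3 and 17.8 FPKM with PD325901, against 31.98, 42.0 and 40.5 FPKM with DMSO. It fell by 1.13 on the log2 scale (SE 0.11, adjusted p = 2.59e-05). Srsf7, an SR protein with a zinc knuckle, had 18.0, 16.4 and 15.5 FPKM with PD325901, against 33.7, 36.7 and 35.7 FPKM with DMSO. Its log2 change was -1.04 ± 0.09 (adjusted p = 8.97e-06).

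The bases before the start sites of these 4 genes and of Lsm10, which rose most, are shown so that they can be read side by side. They are the 150 bases upstream of the RefSeq start, on the gene's own strand, in build GRCm38.p6, since the deposited table, made on mm9, holds symbols only. Capitals mark CCAAT or its reverse complement ATTGG. The intervals are chr15:103240247-103240396 (+) for Hnrnpa1, chr7:66060186-66060335 (+) for Snrpa1, chr10:93589659-93589808 (-) for Snrpf, chr17:80207306-80207455 (-) for Srsf7 and chr4:126096503-126096652 (+) for Lsm10.
Hnrnpa1: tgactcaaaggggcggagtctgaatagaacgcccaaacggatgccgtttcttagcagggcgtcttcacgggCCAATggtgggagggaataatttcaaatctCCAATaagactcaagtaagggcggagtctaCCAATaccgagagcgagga
Snrpa1: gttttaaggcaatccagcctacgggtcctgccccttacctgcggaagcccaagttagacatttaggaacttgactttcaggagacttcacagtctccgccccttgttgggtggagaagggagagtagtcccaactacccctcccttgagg
Snrpf: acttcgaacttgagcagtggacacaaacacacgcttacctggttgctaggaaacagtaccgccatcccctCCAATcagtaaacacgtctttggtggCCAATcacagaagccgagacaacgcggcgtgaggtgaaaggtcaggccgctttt
Srsf7: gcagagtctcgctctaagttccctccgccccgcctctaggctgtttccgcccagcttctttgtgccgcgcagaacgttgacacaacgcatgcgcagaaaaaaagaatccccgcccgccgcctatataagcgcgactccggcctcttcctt
Lsm10: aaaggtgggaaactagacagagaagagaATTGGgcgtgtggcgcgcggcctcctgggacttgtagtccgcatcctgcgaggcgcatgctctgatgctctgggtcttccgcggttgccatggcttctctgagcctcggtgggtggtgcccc
In the stretches printed, Hnrnpa1 holds CCAAT 79, 49 and 19 bases before its start, Snrpf 80 and 54 bases before, and Lsm10 holds ATTGG 122 bases before. Snrpa1 and Srsf7 hold neither. Short sequence words, 3 in all, were looked for on both strands in the 250 bases upstream of 57 members with a RefSeq promoter, 1 of them found by its newer symbol. These were CACGTG (the E-box that Myc and its relatives can bind), CCGGAAG (a core that ETS factors can bind) and CCAAT (bound by NF-Y). None of the 3 words contains another. A gene was counted if any of its listed promoters held the word, and some genes had several, such as Hnrnph1 with 5 and Hnrnpf with 4. Hnrnpf held all 3 words. CACGTG was in 7.02% of members and 10.5% of the 8288 genes tested that have a promoter, CCGGAAG in 29.8% and 17.7%, and CCAAT in 45.6% and 40.7%. Among the members with a promoter that fell with PD325901 (42 genes), 4 held CACGTG, 11 CCGGAAG and 21 CCAAT. Of the 15 that did not fall, 0, 6 and 5 held these words. By share, CCGGAAG was less common among the members that fell (26.2%) than among those that did not. CACGTG and CCAAT were more common among those that fell. For CACGTG that share was 9.52%, below the 10.5% of genes tested. A match is a description of letters and not a binding site, and any part of these words in the changes was not tested.

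Every Sm core gene measured fell with PD325901. The Sm ring is loaded onto the small RNAs U1, U2, U4 and U5, and all 7 subunits tested fell, with a median log2 change of -0.63 and no overlap with DMSO for any of them. The summed level of the 7 genes was 555 ± 17.1 FPKM with PD325901, 817 ± 76.1 with RAD001, 942 ± 46.5 with GDC0941 and 858 ± 84.2 with DMSO (SD, n = 3 each). After Snrpf came Snrpd1, at 35.2, 29.4 and 32.5 FPKM with PD325901, against 59.5, 65.2 and 63.5 FPKM with DMSO. That is a log2 change of -0.94 ± 0.09 (adjusted p = 2.20e-05). Snrpd2 had 107, 89.2 and 88.8 FPKM with PD325901, against 149, 179 and 169 FPKM with DMSO, and fell by 0.79 on the log2 scale (adjusted p = 0.000122). The smallest Sm change was that of Snrpb, at -0.41 ± 0.09 (adjusted p = 0.00341). Snrpd3, Snrpg and Snrpe lay between, at -0.63, -0.59 and -0.47. Snrpg, the most abundant Sm gene with a mean of 152 FPKM over all libraries, had 112, 110 and 107 FPKM with PD325901, against 137, 186 and 179 FPKM with DMSO. Snrpn, the Sm gene best known from neurons, was listed at 0 throughout. The myeloid marker Lyz2 was also listed at 0 in every library, so such a 0 need not mean that the gene was silent.

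The proteins of single snRNPs followed less evenly, with 8 of 11 genes that fell, none that rose and a median of -0.33. Among U1 genes, Snrpa fell by 0.62 on the log2 scale (SE 0.08, adjusted p = 0.000162) and Snrpc by 0.33 (adjusted p = 0.00796). Snrnp70, whose product binds the first stem of U1 RNA, had 71.4, 78.6 and 63.2 FPKM with PD325901, against 74.5, 89.8 and 76.4 FPKM with DMSO. These groups overlapped, and the change of -0.17 ± 0.16 did not pass (adjusted p = 0.387). The U5 genes Snrnp40 and Snrnp200, the second a helicase that unwinds U4 from U6, changed by -0.68 ± 0.07 (adjusted p = 4.13e-05) and -0.25 ± 0.09 (adjusted p = 0.0432). Of the minor spliceosome, which removes a rare intron class, Snrnp25 fell by 0.55, Snrnp35 by 0.43 and Snrnp48 by 0.30 on the log2 scale (adjusted p = 0.0200, 0.0328 and 0.0357). Snrnp27, a tri-snRNP protein, was at -0.28 (adjusted p = 0.0631, and 0.0471 with replicate number as a block). Snrnp200, Snrnp25, Snrnp35 and Snrnp48 each lost their call in at least 3 of the 6 fits without 1 library, with adjusted p up to 0.132 (without PD325901 replicate 1), 0.0604 (without PD325901 replicate 2), 0.111 and 0.134 (both without DMSO replicate 1).

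The proteins of Snrpa1 and Snrpb2 are partners that bind a stem loop of U2 RNA together. While Snrpa1 fell by the largest amount in its class, its partner gene Snrpb2 had 36.1, 33.6 and 35.1 FPKM with PD325901, against 37.1, 41.2 and 42.7 FPKM with DMSO. That change was -0.20 ± 0.08 and did not pass (adjusted p = 0.0583). As a ratio of FPKM, Snrpa1 over Snrpb2 was 0.285, 0.277 and 0.306 with PD325901, 0.488, 0.404 and 0.420 with RAD001, 0.417, 0.339 and 0.344 with GDC0941, and 0.599, 0.767 and 0.676 with DMSO. All 9 libraries with an inhibitor were below the lowest DMSO library. This ratio was chosen after the values were seen and was not tested.

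Among the LSm genes, 7 of 11 fell and 1 rose, with a median of -0.44. Lsm2 to Lsm7, whose products are shared by the nuclear ring on U6 and the cytoplasmic ring that promotes mRNA decay, all fell, with changes from -0.96 to -0.38. Lsm7 had 33.3, 29.3 and 32.1 FPKM with PD325901, against 48.8, 71.2 and 68.9 FPKM with DMSO, a change of -0.96 ± 0.15 (adjusted p = 0.000438). Lsm2 had 14.8, 14.7 and 14.9 FPKM with PD325901, against 22.9, 25.0 and 26.0 FPKM with DMSO, a change of -0.70 ± 0.11 (adjusted p = 0.000423). Lsm4 fell by 0.54 on the log2 scale (adjusted p = 0.000962). Lsm3, Lsm5 and Lsm6 fell by 0.44, 0.44 and 0.38 (adjusted p = 0.0156, 0.0377 and 0.0228). Their calls were lost in 3 or 4 of the 6 fits without 1 library, with adjusted p up to 0.0610, 0.147 and 0.0895, each without DMSO replicate 2. Lsm1, which marks the cytoplasmic ring, was at -0.16 (adjusted p = 0.162). Lsm12 fell by 0.52, whereas the P-body genes Lsm14a and Lsm14b, at -0.15 and 0.07, did not pass.

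Lsm10 went the other way. Its protein sits in the U7 snRNP, which trims histone mRNAs rather than introns. It had 39.6, 33.0 and 31.5 FPKM with PD325901, 25.1, 26.6 and 21.8 with RAD001, 28.2, 26.5 and 30.4 with GDC0941, and 24.2, 24.0 and 25.8 with DMSO. The PD325901 libraries were the 3 highest of the 12, and the log2 change against DMSO was 0.47 ± 0.10 (adjusted p = 0.00317). Lsm11, its U7 partner, was under the limit of 1 FPKM with 0.811, 0.562 and 0.752 FPKM with PD325901, against 0.856, 1.05 and 1.08 FPKM with DMSO.

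In the SF3 complexes, which hold U2 at the branch point, 6 of 8 genes fell and the median was -0.38. Sf3b3 had 14.1, 14.7 and 14.9 FPKM with PD325901, against 26.0, 30.4 and 31.3 FPKM with DMSO. The change was -0.95 ± 0.08 (adjusted p = 6.49e-06), and the PD325901 libraries were nearly equal. Sf3b4 had 28.7, 27.6 and 25.4 FPKM with PD325901, against 49.0, 46.2 and 46.7 FPKM with DMSO, and fell by 0.77 on the log2 scale (adjusted p = 0.00128). Sf3a3 had 17.1, 16.5 and 16.9 FPKM with PD325901, against 27.6, 27.2 and 27.4 FPKM with DMSO, and fell by 0.67 (adjusted p = 1.31e-05). Sf3a1, Sf3b5 and Sf3a2 fell by 0.38, 0.37 and 0.29 (adjusted p = 0.00544, 0.0362 and 0.0261), the last pair losing their calls in 4 of 6 fits without 1 library, with adjusted p up to 0.129 for Sf3b5 without PD325901 replicate 2 and 0.0875 for Sf3a2 without PD325901 replicate 3. Sf3b1, the scaffold of SF3b, had 47.2, 53.8 and 47.7 FPKM with PD325901, against 40.4, 42.0 and 39.7 FPKM with DMSO. The groups did not overlap and the change was 0.28 ± 0.12, yet it did not pass (adjusted p = 0.0893). In a fit of the 2 groups alone the adjusted p was 0.0159, and with library weights it was 0.00200. Sf3b2, at -0.05 ± 0.08, did not pass either (adjusted p = 0.638), and its sign turned under both other scalings.

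**Figure D2:**
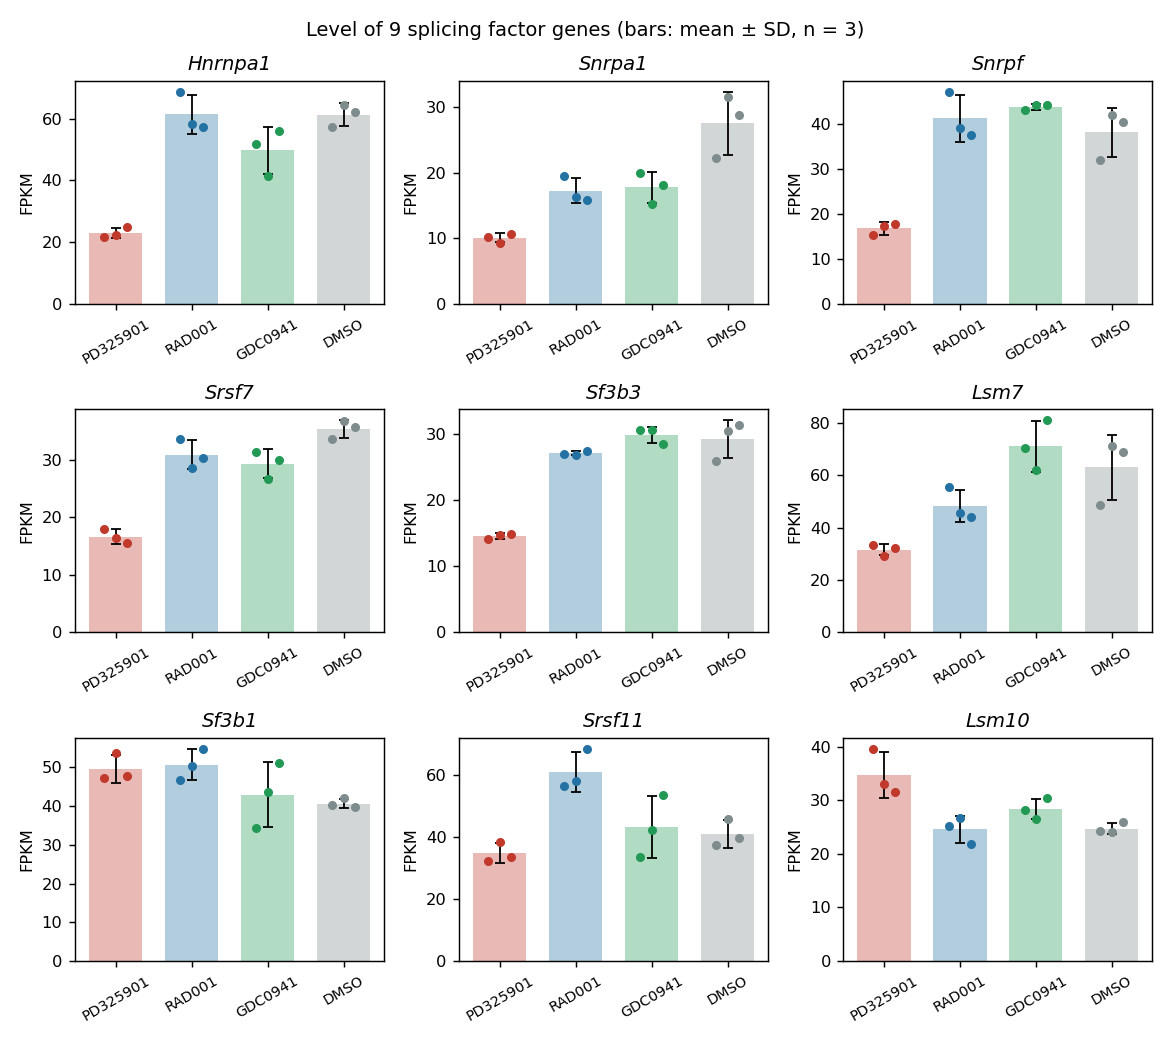
FPKM of 9 genes in each library (points) with the group mean (bar) and SD (error bar, n = 3); the axes start at 0. In the upper 6 panels the PD325901 points lie below all DMSO points, whereas Sf3b1 and Lsm10 are higher with PD325901 than with DMSO and Srsf11 is highest with RAD001.

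SR genes split into those that fell and those that did not pass. Of 11, 6 fell and none rose, with a median of -0.36. Srsf3, the smallest SR protein, had 45.4, 43.1 and 45.6 FPKM with PD325901, against 66.0, 84.0 and 79.3 FPKM with DMSO, a change of -0.75 ± 0.10 (adjusted p = 0.000121). Srsf1, the SR protein first known as ASF/SF2, had 23.9, 23.3 and 25.0 FPKM with PD325901, against 33.9, 35.96 and 39.8 FPKM with DMSO, a change of -0.58 ± 0.08 (adjusted p = 0.000134). Srsf2, the human counterpart of which is mutated in myelodysplastic disease, had 88.2, 103 and 90.1 FPKM with PD325901, against 103, 147 and 139 FPKM with DMSO. Its change was -0.45 ± 0.14 (adjusted p = 0.0187), and its call was lost in 4 of 6 fits without 1 library (adjusted p up to 0.0795, without DMSO replicate 2). Srsf6 and Srsf10 fell by 0.43 and 0.36 on the log2 scale (adjusted p = 0.0114, or 0.0513 without PD325901 replicate 3, and 0.00209).

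Srsf5, the most abundant SR gene, did not pass. It had 197, 193 and 151 FPKM with PD325901, against 165, 199 and 169 FPKM with DMSO, with a change of 0.02 ± 0.16 (adjusted p = 0.941) whose sign varied between settings. Srsf9 was at 0.04 ± 0.11 (adjusted p = 0.799) and Srsf4 at 0.10 ± 0.08 (adjusted p = 0.336). Srsf11 was at -0.23 ± 0.15 (adjusted p = 0.231). Sfrs18, an SR-related gene now called Pnisr, had 14.7, 19.2 and 14.4 FPKM with PD325901, against 11.1, 13.7 and 11.9 FPKM with DMSO. Although its groups did not overlap, 0.36 ± 0.21 did not pass (adjusted p = 0.184).

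The hnRNP genes made up the largest class, with 16 of 20 that fell, 1 that rose and a median of -0.39. Their summed level was 1253 ± 18.1 FPKM with PD325901, 1728 ± 52.5 with RAD001, 1711 ± 60.7 with GDC0941 and 1667 ± 82.4 with DMSO (SD, n = 3 each). Hnrnpab had 73.5, 67.8 and 70.1 FPKM with PD325901, against 129, 143 and 138 FPKM with DMSO, a change of -0.94 ± 0.10 (adjusted p = 2.89e-05). Hnrnph1, which binds runs of G, had 39.9, 49.99 and 41.7 FPKM with PD325901, against 58.9, 74.5 and 65.3 FPKM with DMSO, a change of -0.58 ± 0.16 (adjusted p = 0.0101). Hnrnpa2b1, the most abundant member of all at a mean of 250.3 FPKM, had 201, 200.3 and 197 FPKM with PD325901, against 233, 289 and 283 FPKM with DMSO. It fell by 0.42 on the log2 scale (SE 0.09, adjusted p = 0.00243). Hnrnpk, a protein that binds runs of C, had 135, 133 and 140 FPKM with PD325901, against 172, 187 and 187 FPKM with DMSO, a change of -0.41 ± 0.07 (adjusted p = 0.000556).

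Smaller falls ran through the rest of the class. Hnrnpf, nearly as abundant as Hnrnpa2b1, fell by 0.22 on the log2 scale (SE 0.06, adjusted p = 0.0137). It did not pass under either other scaling between libraries (adjusted p = 0.0710 and 0.0668) or without PD325901 replicate 2 (0.0596). Hnrnpa0, Hnrpdl, Hnrnpr, Hnrnpd, Hnrnpm, Hnrnpu, Hnrnpa3, Hnrnpc and Hnrnpul2 also fell, by between 0.53 for Hnrnpa0 and 0.23 for Hnrnpul2. Of these, Hnrnpul2 and Hnrnpa3 lost their calls in 6 and 2 of the 6 fits without 1 library (adjusted p up to 0.0753 without DMSO replicate 3, and 0.0581 without PD325901 replicate 2). The call of Hnrnpl, a protein that binds CA repeats, was marginal at -0.18 ± 0.07 (adjusted p = 0.0498, 0.0643 with replicate number as a block, and up to 0.163 without PD325901 replicate 3). Hnrnpul1, Hnrnph3 and Hnrnph2 did not pass, at -0.20, -0.22 and -0.10. Hnrpll, known in T cells for steering the splicing of Ptprc, rose. It had 20.0, 20.9 and 21.3 FPKM with PD325901, against 17.4, 17.4 and 18.4 FPKM with DMSO, a change of 0.21 ± 0.07 (adjusted p = 0.0245, and up to 0.0823 without 1 library, PD325901 replicate 3). Several of these families, Hnrnpa1, Snrpe and Snrpg among them, have processed copies elsewhere in the mouse genome, and how reads shared with such copies were assigned is not given in the sources used here, so their levels are uncertain.

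**Figure D3:**
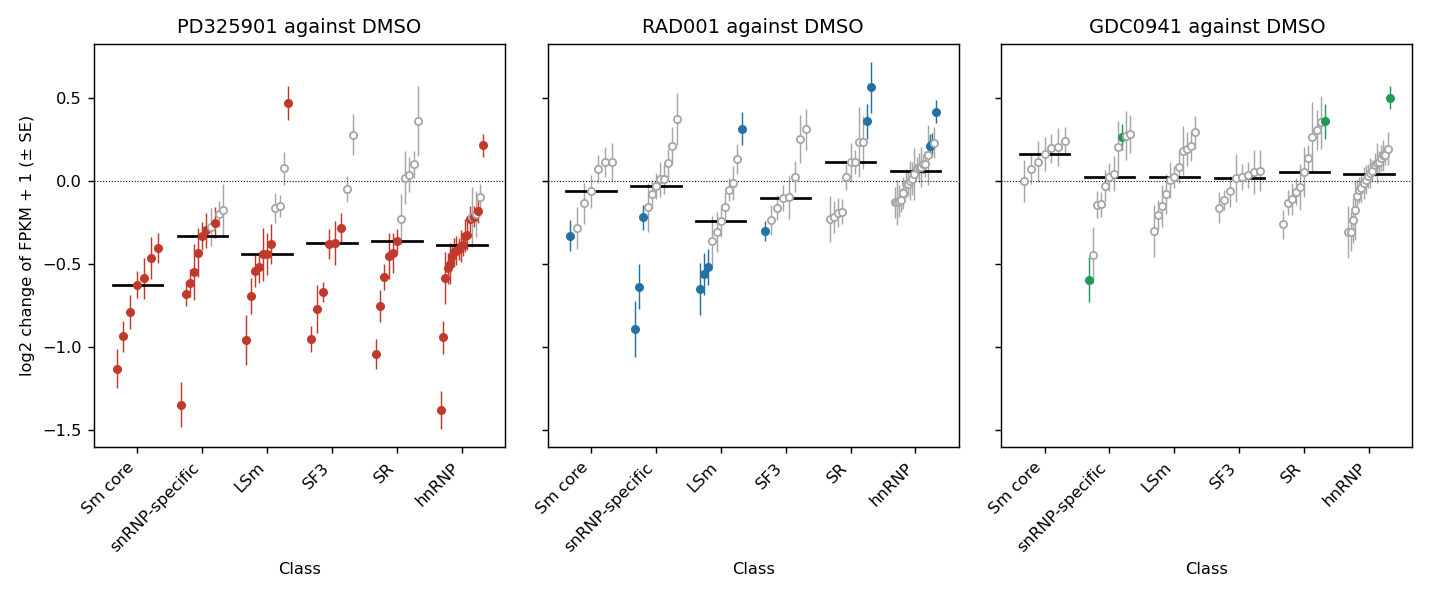
Log2 change of FPKM + 1 against DMSO, with its SE, for each of the 68 genes (points) in 6 classes (horizontal axis), 1 panel per inhibitor; filled points passed at an adjusted p under 0.05, open points did not, and black bars are class medians. With PD325901 all class medians lie between -0.63 and -0.33, whereas with RAD001 and GDC0941 they lie between -0.24 and 0.16.

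RAD001 changed few of these genes. Against DMSO 8 members fell (11.8%, against 15.9% of all genes tested) and 6 rose (8.82%, against 15.4%), with a median of -0.02 over the members and 0.00 over all genes. Those 8 were Snrnp25, Lsm5, Snrpa1, Lsm3, Lsm2, Snrpd1, Sf3a3 and Snrnp40, and the 6 were Srsf11, Hnrpll, Srsf9, Lsm14b, Hnrnpk and Hnrnpl. The groups did not overlap for 13 members below DMSO (19.1%, against 25.6% of all genes) and 14 above (20.6%, against 25.3%). All of these shares were below those of all genes. The counts depended on scaling and on libraries. With quantile normalization 19 fell and 4 rose, so that falls made up 82.6% of the calls in place of 57.1%. With library weights 28 fell and 15 rose. Shares of all genes called under these other settings are not given here, so these counts cannot be set against all genes. Without DMSO replicate 1, 13 fell, and without any 1 of the 6 libraries only 2 rose.

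The falls with RAD001 were single genes of several classes, and related genes did not all move. Of the minor spliceosome genes among the members only Snrnp25 was called, while Snrnp35 and Snrnp48 were at -0.16 and 0.01 (adjusted p = 0.433 and 0.954). Of 6 minor spliceosome genes outside the members, 1 fell with RAD001 (16.7%, against 15.9% of all genes tested). Of the U2 genes, Snrpb2 and Sf3b3 were at -0.03 and -0.10 and did not pass (adjusted p = 0.797 and 0.340). Snrnp25 had 18.4, 12.7 and 10.97 FPKM with RAD001, against 27.1, 25.6 and 26.2 FPKM with DMSO, a change of -0.89 ± 0.17 (adjusted p = 0.00256). RAD001 replicate 1 was the highest of its group here. Snrpa1 had 19.5, 16.4 and 15.9 FPKM with RAD001, against 22.2, 31.6 and 28.9 FPKM with DMSO, a change of -0.64 ± 0.14 (adjusted p = 0.00498). Of the genes shared by the nuclear and cytoplasmic LSm rings, Lsm5 fell by 0.65, Lsm3 by 0.56 and Lsm2 by 0.52 on the log2 scale (adjusted p = 0.00933, 0.00721 and 0.00445). Lsm5 had 24.9, 22.6 and 16.5 FPKM with RAD001, against 27.9, 40.1 and 34.1 FPKM with DMSO. Lsm7, Lsm6 and Lsm4 were at -0.36, -0.31 and -0.24 and did not pass (adjusted p = 0.0889, 0.0741 and 0.0805). Sf3a3 fell by 0.30 on the log2 scale (adjusted p = 0.00361). Snrpd1 and Snrnp40 fell by 0.33 and 0.22 (adjusted p = 0.0196 and 0.0435), and these 2 calls were lost without 1 library (adjusted p up to 0.0836 without RAD001 replicate 3 and 0.149 without DMSO replicate 2).

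The rises with RAD001 were SR and hnRNP genes and Lsm14b. Srsf11 had 56.4, 58.1 and 68.5 FPKM with RAD001, against 37.3, 45.9 and 39.8 FPKM with DMSO, a change of 0.56 ± 0.15 (adjusted p = 0.0158, and 0.0650 without RAD001 replicate 3). Hnrpll had 23.6, 24.3 and 24.0 FPKM with RAD001, against 17.4, 17.4 and 18.4 FPKM with DMSO, a change of 0.42 ± 0.07 (adjusted p = 0.00114). It was the one rise of the 6 that kept its call without each library in turn. Srsf9 rose by 0.36 and Lsm14b by 0.31 on the log2 scale (adjusted p = 0.0239 and 0.0334). Hnrnpk and Hnrnpl rose by 0.22 and 0.21 (adjusted p = 0.0264 and 0.0417), and both calls were lost in each of the 6 fits without 1 library. With replicate number as a block, Hnrnpl lost its call (adjusted p = 0.0533), while Sf3b1, at 0.31 ± 0.12 and an adjusted p of 0.0815 without it, passed at 0.0484. Hnrnpk turned to -0.01 with quantile normalization. The highest adjusted p without 1 library was 0.0789 for Srsf9 (DMSO replicate 2), 0.132 for Lsm14b (DMSO replicate 2), 0.0904 for Hnrnpk (RAD001 replicate 2) and 0.116 for Hnrnpl (DMSO replicate 3).

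GDC0941 left most members near their DMSO level. One gene fell (1.47%, against 12.7% of all genes tested) and 3 rose (4.41%, against 11.6%), with medians of 0.04 over the members and 0.02 over all genes. The groups did not overlap for 7 members below DMSO (10.3%, against 18.3% of all genes) and 14 above (20.6%, against 20.3%). Snrpa1 was the gene that fell, at 19.9, 15.3 and 18.2 FPKM with GDC0941, against 22.2, 31.6 and 28.9 FPKM with DMSO. The change was -0.60 ± 0.14 (adjusted p = 0.00899). Hnrpll had 23.6, 26.2 and 26.7 FPKM with GDC0941, against 17.4, 17.4 and 18.4 FPKM with DMSO, a change of 0.50 ± 0.07 (adjusted p = 0.000638). Srsf9 and Snrpb2 rose by 0.36 and 0.26 on the log2 scale (adjusted p = 0.0304 and 0.0337). Their calls were lost in 4 and 3 of the 6 fits without 1 library, with adjusted p up to 0.102 (without GDC0941 replicate 3) and 0.116 (without DMSO replicate 1). The split was 2 and 3 with median-ratio scaling, 3 and 5 with quantile normalization, 5 and 7 without GDC0941 replicate 1, 3 and 1 without GDC0941 replicate 3, and 1 and 1 without DMSO replicate 2. With library weights 9 fell. Here too, shares of all genes under these other settings are not given.

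Replicates were widest in the GDC0941 group. The median coefficient of variation over the members was 9.43% with GDC0941, against 5.06% with PD325901, 5.87% with RAD001 and 6.50% with DMSO. For 37 of the 68 members the GDC0941 group had the highest value of the 4. Srsf5, for example, had 192, 206 and 293 FPKM with GDC0941, Snrnp70 had 70.9, 94.6 and 117 FPKM and Hnrnph1 had 41.0, 54.0 and 67.4 FPKM, with replicate 3 highest in each. Over all genes tested the median was 13.8% with GDC0941 and 7.99% with DMSO.

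**Figure D4:**
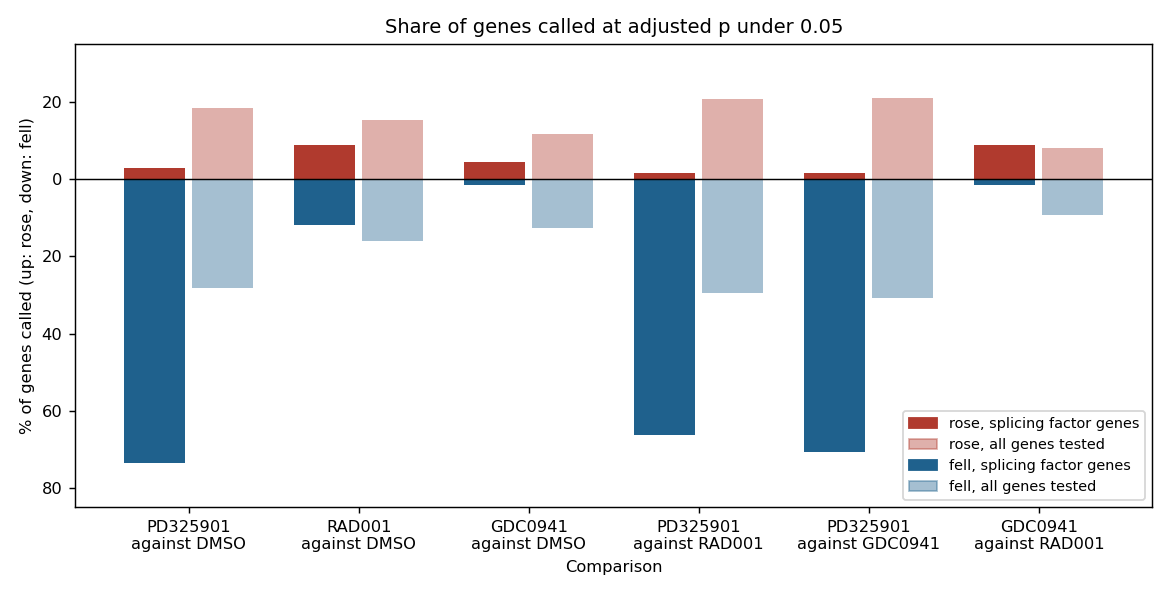
Share of genes called at an adjusted p under 0.05, upward for genes that rose and downward for genes that fell, for the 68 splicing factor genes (dark) and all 10305 genes tested (light) in the 6 comparisons. With PD325901 against DMSO 73.5% of the members fell, against 28.2% of all genes, while with GDC0941 against DMSO 1.47% fell, against 12.7%.

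The inhibitors were also compared with each other, which tests the differences between their responses directly, over all 3 pairs with p adjusted within each comparison. Against RAD001, 45 members were lower with PD325901 (66.2%, against 29.4% of all genes tested) and 1 was higher (1.47%, against 20.8%), with a median of -0.35. Against GDC0941, 48 were lower with PD325901 (70.6%, against 30.7%) and 1 was higher (1.47%, against 20.9%), with a median of -0.42. All PD325901 libraries were below all RAD001 libraries for 53 members (77.9%, against 35.9% of all genes) and above for 1 (1.47%, against 26.6%). They were below all GDC0941 libraries for 51 members (75.0%, against 33.5%) and above for 1 (1.47%, against 23.2%). The gene that was higher was Lsm10 in both comparisons, at 0.48 ± 0.10 against RAD001 (adjusted p = 0.00224) and 0.28 ± 0.10 against GDC0941 (adjusted p = 0.0392, and up to 0.151 without 1 library, PD325901 replicate 1). All pairs involving PD325901 share its libraries, so these counts are not independent of each other or of the comparison with DMSO.

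Hnrnpa1 differed most between PD325901 and RAD001, at 21.6, 22.4 and 24.8 FPKM with PD325901, against 68.7, 58.1 and 57.3 FPKM with RAD001, a change of -1.38 ± 0.12 (adjusted p = 3.68e-06). Against GDC0941, at 51.8, 41.3 and 55.9 FPKM, its change was -1.07 ± 0.12 (adjusted p = 2.13e-05). Snrpf was lower with PD325901 by 1.24 than with RAD001 and by 1.34 than with GDC0941 on the log2 scale, as fitted at -1.24 ± 0.11 and -1.34 ± 0.11 (adjusted p = 7.25e-06 and 4.43e-06). Snrpa1, lower than DMSO with each inhibitor, was lower still with PD325901, at -0.71 ± 0.14 against RAD001 (adjusted p = 0.00120) and -0.75 ± 0.14 against GDC0941 (adjusted p = 0.000785). Sf3b4 was at -1.02 ± 0.14 against RAD001 (adjusted p = 0.000145) and Sf3b3 at -0.99 ± 0.08 against GDC0941 (adjusted p = 2.48e-06). Srsf7 was at -0.85 ± 0.09 and -0.78 ± 0.09 (adjusted p = 1.77e-05 and 3.21e-05). Snrnp70, which did not pass against DMSO, was lower with PD325901 than with RAD001, by -0.54 ± 0.16 (adjusted p = 0.0133, and 0.0559 without PD325901 replicate 3).

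Lsm2 to Lsm7, shared by the nuclear ring on U6 and the cytoplasmic ring, set the inhibitors apart in another way. Lsm8 was not among the 71 symbols found, and these values do not tell the rings apart. Lsm7 had 33.3, 29.3 and 32.1 FPKM with PD325901, 55.4, 45.6 and 44.0 with RAD001, and 70.2, 61.8 and 81.0 with GDC0941. Its change was -0.60 ± 0.15 for PD325901 against RAD001 (adjusted p = 0.00642) and -1.14 ± 0.15 against GDC0941 (adjusted p = 8.73e-05). Lsm4 was also lower with PD325901 than with RAD001, at -0.30 ± 0.10 (adjusted p = 0.0220, with the call lost without PD325901 replicate 2, at 0.0906, and without RAD001 replicate 2). Lsm2, Lsm3, Lsm5 and Lsm6 did not differ beyond the threshold between PD325901 and RAD001 (adjusted p = 0.197, 0.463, 0.294 and 0.639). Against GDC0941, Lsm2 and Lsm4 were lower with PD325901 as well, at -0.70 ± 0.11 and -0.62 ± 0.10 (adjusted p = 0.000276 and 0.000275), while Lsm3, Lsm6 and Lsm5 did not pass (adjusted p = 0.0825, 0.0569 and 0.477). Lsm3 had 37.7, 34.4 and 37.3 FPKM with PD325901, 38.9, 33.7 and 28.6 with RAD001, 47.0, 38.4 and 49.7 with GDC0941, and 43.7, 54.1 and 52.5 with DMSO. With replicate number as a block, Snrnp25 and Lsm14b passed for PD325901 against RAD001, at 0.34 and -0.24 (adjusted p = 0.0412 and 0.0489).

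GDC0941 and RAD001 differed in few members. With GDC0941 6 genes were higher than with RAD001 (8.82%, against 8.09% of all genes tested) and 1 was lower (1.47%, against 9.35%), with a median of 0.07. The groups did not overlap for 17 members above RAD001 (25.0%, against 17.3% of all genes) and 4 below (5.88%, against 14.9%). The 6 that were higher were Lsm7, Lsm2, Lsm3, Snrpd1, Lsm4 and Snrpb2, at 0.54, 0.52, 0.41, 0.40, 0.32 and 0.29. Lsm2 had 27.2, 21.7 and 25.3 FPKM with GDC0941, against 19.9, 15.6 and 15.3 FPKM with RAD001 (adjusted p = 0.00865), and it kept its call without each library in turn. Srsf11 was the gene that was lower, at 33.7, 42.4 and 53.5 FPKM with GDC0941, against 56.4, 58.1 and 68.5 FPKM with RAD001, a change of -0.51 ± 0.15 (adjusted p = 0.0405). Its call was lost in both other scalings and in 4 of 6 fits without 1 library (adjusted p up to 0.145, without RAD001 replicate 3). Lsm3, Lsm4, Lsm7, Snrpb2 and Snrpd1 also lost their calls without RAD001 replicate 3 (adjusted p = 0.181, 0.118, 0.109, 0.104 and 0.0613). With replicate number as a block Lsm3 lost its call (adjusted p = 0.0548) and Snrnp25 gained one (0.0317). A fit of these 2 groups alone called no member, 1 member was higher without RAD001 replicate 2 or 3, and 3 were lower and 2 higher without GDC0941 replicate 3.

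Beyond the 68 genes, 7 lists of other splicing genes were read in the same fit. Assembly factors that build the Sm ring onto the small RNAs moved with the Sm genes, since 10 of 12 fell with PD325901 and none rose (median -0.61). Prmt5, which methylates Sm proteins, was at -1.53 ± 0.07 (adjusted p = 3.07e-07), and Smn1, the core of the assembly complex, was at -0.86 ± 0.11 (adjusted p = 9.21e-05). Of 8 factors of the branch point and 3′ splice site 6 fell and none rose, U2af1 by 0.80 and U2af2 by 0.58 on the log2 scale (adjusted p = 3.51e-05 and 8.46e-05). Of 14 tri-snRNP and U5 genes 7 fell and none rose, Nhp2l1 by 0.97 and Prpf31 by 0.60 (adjusted p = 3.74e-05 and 0.000219). Of 26 other RNA-binding regulators tested 11 fell and 1 rose, with Syncrip at -0.80 and Taf15 at -0.79 (adjusted p = 1.45e-05 and 4.26e-05). These lists were chosen with earlier results of the data known, and their counts stand beside the 28.2% and 18.4% of all genes. The genes named in each list are those with the smallest adjusted p with PD325901, so they do not stand for the whole list.

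With PD325901, falls made up a smaller share of the other 3 lists. Of 16 Prp19 and catalytic step genes 3 fell (18.8%, against 28.2% of all genes tested) and 1 rose (6.25%, against 18.4%), with a median of -0.01. Isy1 and Prpf19 were at -0.55 and -0.57 (adjusted p = 0.000337 and 0.000970). Among 12 SR kinases and SR-related coactivators 3 fell and 1 rose (25% and 8.33%). Srpk1, a kinase that sends SR proteins to the nucleus, was at -0.67 and Tra2b, an exon-binding activator, at -0.67 (adjusted p = 4.86e-05 and 6.31e-05). Of 6 further minor spliceosome genes 1 fell and 2 rose (16.7% and 33.3%). Zrsr1 was at 0.62 and Zcrb1 at -0.30 (adjusted p = 0.00345 and 0.0269). Over all 7 lists, with 94 genes tested, 6 fell and 6 rose with RAD001, beside 15.9% and 15.4% of all genes, and 5 fell and 2 rose with GDC0941, beside 12.7% and 11.6%. Prmt5 was at -0.15 with RAD001 and -0.11 with GDC0941 (adjusted p = 0.145 and 0.293).

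Proliferation genes and Myc are set beside these results because both moved with treatment. Of 16 proliferation genes 15 fell with PD325901 (93.8%, against 28.2% of all genes tested), 16 with RAD001 (100%, against 15.9%) and 16 with GDC0941 (100%, against 12.7%) against DMSO. Their summed level was 192 to 205 FPKM with PD325901, 177 to 275 with RAD001, 197 to 388 with GDC0941 and 509 to 569 with DMSO. The 3 inhibitor groups overlapped in this sum, and all were below DMSO. Pcna was the largest part of it, averaging 95.3 FPKM with PD325901, 141 with RAD001, 168 with GDC0941 and 245 with DMSO. The sum therefore says little of the other genes. Their median log2 change, Pcna included, was 0.46 for PD325901 against RAD001 and 0.02 against GDC0941. In each of these comparisons 1 of the 16 genes was called lower and 1 higher (6.25% each). Of all genes tested, 29.4% were lower and 20.8% higher with PD325901 than with RAD001. Against GDC0941 these shares were 30.7% and 20.9%. Myc, a transcription factor that drives growth genes, had 1.20, 1.17 and 0.962 FPKM with PD325901, 32.1, 39.1 and 35.2 with RAD001, 35.3, 33.2 and 36.5 with GDC0941, and 25.1, 19.5 and 23.0 with DMSO. It was lowest with PD325901 in every library. The part of proliferation, of Myc and of the marker genes in these results was not tested.

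**Figure D5:**
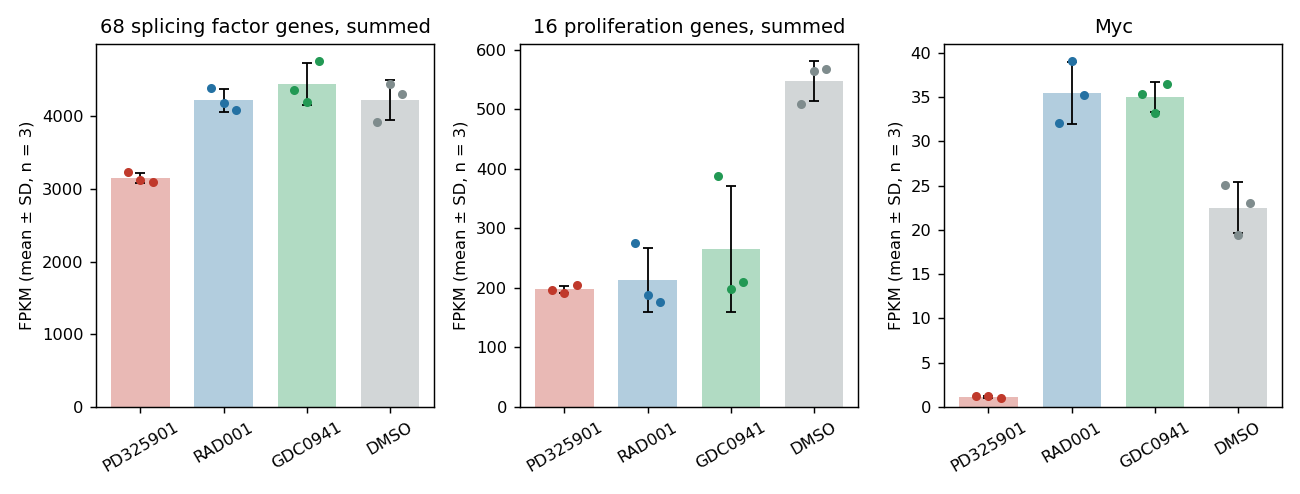
Summed FPKM of the 68 splicing factor genes (left), summed FPKM of 16 proliferation genes (middle) and FPKM of Myc (right) per library (points), with group mean (bar) and SD (error bar, n = 3). The 68 genes sum to 3100 to 3229 FPKM with PD325901 and to 3915 or more in every other library, while the proliferation sum is below every DMSO library with each inhibitor.

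In summed FPKM, a level per transcript length, hnRNP genes had the highest group mean in every group, followed by Sm core, SR and snRNP-specific genes. LSm and SF3 genes had the lowest means and changed places between groups, with 251 ± 13.1 and 257 ± 9.68 FPKM with PD325901, 274 ± 23.0 and 320.0 ± 8.90 with RAD001, 340 ± 28.6 and 325 ± 26.0 with GDC0941, and 336 ± 27.9 and 321 ± 10.2 with DMSO (SD, n = 3 each). SR genes summed to 541 ± 33.6 FPKM with PD325901, 689 ± 18.6 with RAD001, 723 ± 107 with GDC0941 and 655 ± 60.1 with DMSO. The snRNP-specific genes summed to 293 ± 8.67 FPKM with PD325901, 392.3 ± 6.32 with RAD001, 398 ± 36.1 with GDC0941 and 388 ± 14.4 with DMSO. In 5 of the 6 classes every PD325901 library was below every other library, the exception being LSm, where the PD325901 and RAD001 sums overlapped.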

How the data were processed

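RNA-seq libraries were made from total RNA with Qiagen RNeasy and Illumina protocols, per the labels' protocols. The authors deposited 1 table of FPKM per gene symbol, and TopHat2 2.0.4, Cuffdiff and build mm9 are named in the submitters' processing notes. The annotation, strand setting and multiple-mapping rule used are not stated by any source used here. All 12 value columns matched a sample. Depth in reads was not known, so no counting interval is given.

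Testing was on log2(FPKM + 1) and covered genes averaging 1 FPKM or more across the 12 columns, with limma 3.58.1 in R 4.3.3. One model held 4 group means (8 residual degrees of freedom, trended prior), and Benjamini-Hochberg adjustment ran over 10305 genes within each of 6 comparisons, with a threshold of 0.05. A single gene's exact permutation test cannot go below p = 0.1 with 3 against 3. The procedure was tested on simulated data. The named genes were 9 set by name, the 2 most abundant of each class, and the largest changes per class among those past the threshold, with other members given beside them. The members and lists were chosen with earlier results of these data known. Replicate numbers come from the labels. Same-numbered libraries deviated together, with every r over 0.1, for PD325901 and DMSO (lowest r 0.183), RAD001 and DMSO (0.201), PD325901 and RAD001 (0.149) and GDC0941 and RAD001 (0.309), so calls that change with replicate number as a block are given beside those comparisons. In that order, samples correlated best with their own number in 3, 1, 1 and 3 of 3 pairs. Pairing is therefore uncertain for RAD001 with DMSO and for PD325901 with RAD001. Alternatives covered pseudocount, filter, scaling, groups fitted, block, library weights and left-out libraries.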

Additional observations from a re-analysis of the deposited data

How the results depend on the processing

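Over 116 gene results, 1671 of 1856 alternative values kept their direction and side of the threshold, 173 lost the threshold, 3 gained it (Sf3b1 with PD325901 against DMSO each time) and 9 turned sign. The sign turned for Sf3b2 with PD325901 against DMSO (0.02415 with median-ratio scaling, 0.01136 with quantile normalization), for Hnrnpk with RAD001 against DMSO (-0.01385 with quantile normalization) and for Srsf5 with PD325901 against DMSO (-0.09058 with library weights, -0.1005 without replicate 1 of every group, and -0.05089 to 0.1379 over the fits without 1 library, below 0 in 4 of 6). The cause was not tested for any value here. The counts below are of members alone, without the share of all genes called under the same setting.

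For PD325901 against DMSO the median was -0.3721 with a pseudocount of 5, -0.336 with median-ratio scaling, -0.348 with quantile normalization, -0.4686 with library weights and -0.4933 without replicate 1 of every group. Members that fell numbered 39 with median-ratio scaling, 40 with quantile normalization and 43 with no filter, and 4 rose in a fit of the 2 groups alone and with library weights. Without 1 library 38 to 45 fell and 1 to 2 rose (median -0.4604 to -0.3628).

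For RAD001 against DMSO 3 rose with no filter, 19 fell with quantile normalization (median -0.08189), 28 fell and 15 rose with library weights, and 21 fell without replicate 1 of every group. Without 1 library 6 to 13 fell and 2 rose (median -0.0339 to 0.009731).

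For GDC0941 against DMSO 2 fell with a pseudocount of 5, with no filter and with median-ratio scaling. With quantile normalization 3 fell and 5 rose, with library weights 9 fell, and without replicate 1 of every group 7 fell and 7 rose. Without 1 library 1 to 5 fell and 1 to 7 rose (median 0.002487 to 0.08149).

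For PD325901 against RAD001 the median was -0.3054 with a pseudocount of 5, -0.2794 with median-ratio scaling and -0.2493 with quantile normalization. Members that rose numbered 3 with each scaling, and 2 with the replicate block, with library weights and without replicate 1 of every group. Without 1 library 37 to 42 fell and 1 to 2 rose (median -0.4097 to -0.338).

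For PD325901 against GDC0941 the median was -0.3977 with a pseudocount of 5, -0.3302 with median-ratio scaling, -0.312 with quantile normalization, -0.385 with library weights and -0.4493 without replicate 1 of every group. Members that rose numbered 0 with no filter, in a fit of the 2 groups alone and without replicate 1 of every group, and 2 with each scaling. Without 1 library 42 to 49 fell and 0 to 3 rose (median -0.4559 to -0.3754).

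For GDC0941 against RAD001 0 fell with no filter, with each scaling and in a fit of the 2 groups alone, where 0 also rose. With library weights 3 fell and 10 rose, and without replicate 1 of every group 2 fell and 17 rose. Without 1 library 0 to 3 fell and 1 to 9 rose (median 0.03992 to 0.08573).

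Replicate numbers did not pair GDC0941 with DMSO (lowest r 0.0354) or with PD325901 (-0.139). With the replicate block GDC0941 against DMSO had 3 members that fell and 4 that rose, with Lsm14b, Snrnp25 and Srsf7 gained, and PD325901 against GDC0941 kept all 49 calls. Samples correlated best with their own number in 1 and 2 of 3 pairs. Beyond the genes named beside the paired comparisons the block changed no call among the members. Depth in reads was not known, so what it limits could not be computed.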
